A study of Homo sapiens with 36 samples.

Results

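Neurotrophin receptors and related surface molecules of the neural lineage were followed across an experiment on the transcription factor NEUROD1 and BET inhibition in small-cell lung cancer cells. The set held 6 genes chosen by name: the receptors NTRK2, NTRK3 and NGFR, the ligand BDNF, the receptor tyrosine kinase RET and the adhesion molecule NCAM1. The series tabulated 57820 genes in fragments per kilobase of transcript and library size (FPKM), which held all 6, and 19014 genes as normalized counts, which held 4 (NTRK3, NGFR, BDNF and NCAM1). These 4 passed the filter on low values (10 or more normalized counts in 9 or more of 36 libraries) that left 15819 genes for testing. NTRK2 and RET had no row among the normalized counts and are described from FPKM alone.

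All cells were H446, a human line of small-cell lung cancer of the NEUROD1 subtype, kept as 6 clones. NEUROD1-knockout clones 12, 15 and 2-1 carried the same NEUROD1 guide RNA, and control clones 3, 10 and 13 carried a non-targeting guide and were labelled wild type. Each clone received 1 µM JQ1, an inhibitor that keeps BET proteins off acetylated chromatin, or its solvent DMSO for 24 h. With 3 libraries per clone and treatment this gave 4 groups of 9 libraries: knockout with JQ1, knockout with DMSO, control with JQ1 and control with DMSO. Since the libraries from 1 clone are not independent, the clone was the replicate (3 against 3), and the knockout effect cannot be told apart from other differences between these 6 clones.

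Neurotrophins are small secreted proteins that guide survival and growth of neurons. They signal through Trk receptor tyrosine kinases, of which NTRK2 binds BDNF and NTRK3 binds neurotrophin 3, and through NGFR (p75), a receptor without kinase activity that binds all neurotrophins and their uncleaved precursors. RET is the signalling receptor of the GDNF family, which reaches it through GFRA co-receptors. NCAM1 is an adhesion molecule of neurons and neuroendocrine cells (CD56) and a diagnostic marker of small-cell lung cancer, in which NTRK2 and NCAM1 have been reported as effectors of NEUROD1.

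NEUROD1 binds DNA as a dimer with an E protein at E-boxes (CANNTG), with a preference for CAGATG. The stretch upstream of a start site is therefore shown for NTRK3, whose transcript was lost in knockout clones, for its relative NTRK2, which was listed at or near 0 everywhere, and for a BDNF start. The NTRK2 and BDNF starts were picked for their E-boxes after the stretches had been searched, NTRK2 as the start with an E-box before the first exon base and BDNF as the start with the preferred form on the reverse strand (CATCTG). The sequences are from RefSeq on GRCh38.p14, run 5′ to 3′ on the gene's strand from 250 bases upstream of the start and end before the first annotated exon base, with E-boxes in capitals. The NTRK3 stretch is chr15:88256769-88256989 (minus strand), the NTRK2 stretch chr9:84701355-84701604 (plus strand) and the BDNF stretch chr11:27701634-27701871 (minus strand).
NTRK3: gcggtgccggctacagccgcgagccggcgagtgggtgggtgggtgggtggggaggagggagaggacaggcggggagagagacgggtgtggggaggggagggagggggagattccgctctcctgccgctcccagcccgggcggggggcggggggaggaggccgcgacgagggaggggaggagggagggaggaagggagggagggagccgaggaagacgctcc
NTRK2: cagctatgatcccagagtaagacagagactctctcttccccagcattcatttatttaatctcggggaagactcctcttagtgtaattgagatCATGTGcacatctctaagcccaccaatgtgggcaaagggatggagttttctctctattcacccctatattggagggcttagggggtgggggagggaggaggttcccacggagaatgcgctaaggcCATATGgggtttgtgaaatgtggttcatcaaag
BDNF: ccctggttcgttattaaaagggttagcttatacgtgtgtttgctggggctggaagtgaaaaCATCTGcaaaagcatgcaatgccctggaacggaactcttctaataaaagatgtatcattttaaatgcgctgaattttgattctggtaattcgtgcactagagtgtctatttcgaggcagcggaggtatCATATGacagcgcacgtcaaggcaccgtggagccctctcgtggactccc
The 221 bases of NTRK3 held 0 E-boxes, the NTRK2 stretch held CATGTG and CATATG, and the BDNF stretch held CATCTG and CATATG. RefSeq listed 1 start for NTRK3, 4 for NTRK2, 5 for BDNF and 2 for RET in the table used here; NGFR and NCAM1 were not among its entries. An E-box lay in the whole window of 250 upstream bases, which unlike the printed stretches can hold annotated exon bases of other transcripts, at 0 of 1, 2 of 4, 3 of 5 and 1 of 2 of these starts. Across all 35116 starts in the table, 61.8% held CANNTG in that window and 12.2% held CAGATG on either strand, so an E-box is common in windows of this length.

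Libraries held 13282337 to 18890506 whole reads in all but 1, with a median of 16302452 over 36. The knockout was checked first: NEUROD1 averaged 1.87 ± 2.93 normalized counts in knockout clones with DMSO, against 5998 ± 580.5 in control clones (SD, n = 3 clones each). HEXIM1, a gene that BET inhibitors raise in many cells, averaged 2138 ± 170.0 with JQ1 and 458.6 ± 29.3 with DMSO in control clones. Of 8 listed subtype markers of small-cell lung cancer, the knocked-out NEUROD1 among them, 6 were tested. Of these, 1 was higher and 4, counting NEUROD1, were lower in knockout clones with DMSO, where 12.5% of all genes passed. INSM1 averaged 42.9 ± 5.19 in knockout and 2832 ± 555.4 in control clones, CHGA 18.8 ± 11.5 and 3492 ± 771.8, and YAP1, a marker of another subtype, 81.5 ± 76.0 and 0.217 ± 0.376. UCHL1 lay closer, at 1515 ± 1289 and 1898.5 ± 601.9. One library, knockout clone 12 with JQ1, replicate 1, stood apart. It held 31825795 reads, and 4 listed markers of lung epithelium summed to 21874 normalized counts in it, against 2.33 to 49.5 in the other libraries. Blood markers summed to 18661 there. In the other libraries they summed to 200.5 to 917.4 in knockout and 18.7 to 108.8 in control clones. Among them CD68, a macrophage marker, was higher in knockout clones (455.1 ± 391.3 in knockout and 41.7 ± 17.7 in control clones with DMSO, log2 fold change 3.24, adjusted p = 0.0193, limma), and PTPRC, CD74 and HLA-DRA were at most 30.2 in any of these libraries. Markers of stroma and endothelium summed to 53038 in the library that stood apart and to 2097 to 37635 elsewhere, with the highest value in knockout clone 2-1 with DMSO, replicate 3. Of these, 4 were tested and 1 passed between genotypes with DMSO (median log2 fold change 1.44). It was CDH5, an endothelial cadherin, which was lower in knockout clones (104.6 ± 134.8 and 5951 ± 2180.4, log2 fold change -7.54, adjusted p = 0.0275). COL3A1 (8496 ± 3266 and 1568 ± 2312) and LUM (5437 ± 9255 and 55.7 ± 40.7) had higher means in knockout clones with DMSO. With JQ1, COL3A1 was higher there (log2 fold change 4.83, adjusted p = 0.0418, and 0.0529 without the library that stood apart). The part of these marker differences in the members' results was not tested. In the library that stood apart, NGFR was at 46.9%, NCAM1 at 40.9% and BDNF at 30.3% of the mean of its replicates. The median of 4149 well expressed genes was 77.0% there. Tests of the members between genotypes with JQ1 and for JQ1 in knockout clones are also given without it; means and the values of other genes include it unless stated.

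Levels were ordered between genes in FPKM, the length-scaled unit. In knockout clones with DMSO, NGFR was highest (306.3 ± 290.9 FPKM, SD over 3 clones), followed by NCAM1 (69.6 ± 20.8 FPKM) and BDNF (2.01 ± 2.46 FPKM). In control clones with DMSO, NCAM1 was highest (151.4 ± 42.7 FPKM), followed by NTRK3 (34.3 ± 7.26 FPKM) and NGFR (30.6 ± 23.1 FPKM), and BDNF averaged 0.0600 ± 0.0524 FPKM. NCAM1 and NGFR therefore stood in the opposite order in the 2 genotypes. Clone means of NCAM1 in knockout clones (45.6 to 82.8 FPKM) lay below those of NGFR (111.6 to 640.7 FPKM), whereas those of NTRK3 and NGFR in control clones overlapped (28.2 to 42.3 against 3.96 to 44.0 FPKM).

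**Figure D1:**
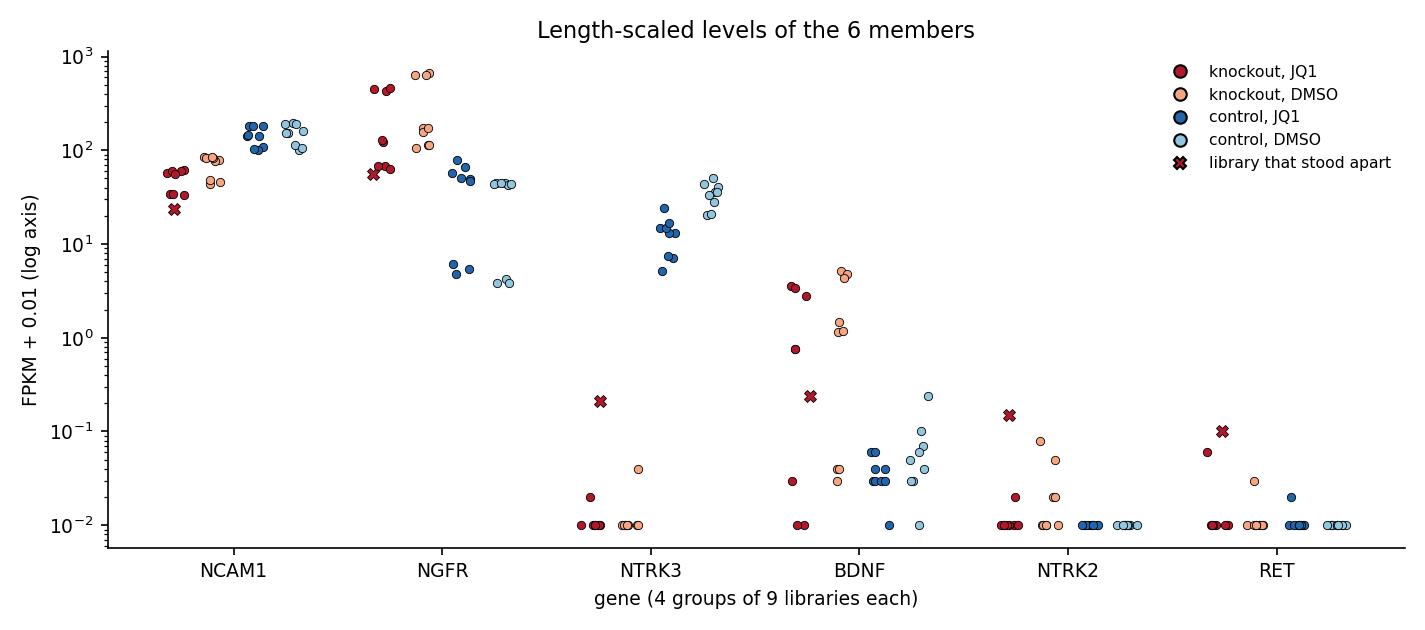
Length-scaled level (FPKM + 0.01, log axis) of the 6 members in each of 36 libraries, by genotype and treatment; a cross marks the library that stood apart. NGFR and BDNF lie higher in most knockout libraries, NCAM1 and NTRK3 lie higher in control libraries, and NTRK2 and RET lie at or near the bottom in all groups.

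NTRK2 and RET were at or near 0 in every group. NTRK2 was listed at 0 FPKM in 30 of 36 libraries, among them all 18 of the control clones. Its 6 values above 0 were 0.14 FPKM in the library that stood apart, 0.01 FPKM in another JQ1 library of knockout clone 12, 0.04, 0.07 and 0.01 FPKM in the DMSO libraries of that clone and 0.01 FPKM in 1 DMSO library of clone 2-1. RET was listed at 0 FPKM in 32 libraries and at 0.09 FPKM in the library that stood apart. Its other values above 0 were 0.05 and 0.02 FPKM in knockout clone 15 with JQ1 and DMSO and 0.01 FPKM in control clone 3 with JQ1. The highest value of both genes was in the library that stood apart, and outside it neither exceeded 0.07 FPKM. At this depth neither receptor was detectable above these levels in either genotype.

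NTRK3 (ENSG00000140538, GRCh38 15:87859751-88256768, minus strand), the receptor of neurotrophin 3, was lost in knockout clones. With DMSO it was at 0 normalized counts in 8 of 9 knockout libraries and at 1.02 in the ninth (clone 15). Control libraries with DMSO held 1270.3, 1226 and 1337 in clone 3, 1605, 1667 and 1591 in clone 10 and 849.7, 852.8 and 839.4 in clone 13. No knockout library came near a control library, and the 3 control clones kept their order in all libraries. The knockout libraries held 1 NTRK3 read in all, against 11214 in control libraries, which is 0.00909% of the control level after scaling (95% interval 0.00023% to 0.0506%, counting error only). The log2 fold change on the log2(normalized count + 1) scale was -10.12 (SE 0.35, adjusted p = 2.82e-05, limma).

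With JQ1 the genotypes were again apart for NTRK3. NTRK3 stood at 7.89, 0.972 and 0 normalized counts in knockout clone 12, with the first value in the library that stood apart, and at 0 in all libraries of clones 15 and 2-1. Control libraries with JQ1 held 541.3, 521.7 and 502.1 in clone 3, 671.7, 652.5 and 673.9 in clone 10 and 239.9, 275.7 and 306.8 in clone 13. Of 15 NTRK3 reads in knockout libraries with JQ1, 14 were in the library that stood apart, and without it the level was 0.0245% of control (95% interval 0.00062% to 0.137%). The log2 fold change was -8.38 (SE 0.53, adjusted p = 0.000199), and -8.67 (adjusted p = 7.02e-05) without that library.

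Every control clone had less NTRK3 with JQ1 than with DMSO. The clone means were 521.7 with JQ1 and 1278 with DMSO in clone 3, 666.0 and 1621 in clone 10, and 274.1 and 847.3 in clone 13. NTRK3 fell with JQ1 in control clones by 1.40 on the log2 scale (SE 0.32, adjusted p = 0.00758), which is 0.379 of the DMSO level. The 3 libraries of a clone did not overlap between treatments. The call rested on 3 clones: the adjusted p was 0.0509 without clone 10 and 0.0662 without clone 13, the highest of all settings tried (from 4.85e-18). In knockout clones there was no NTRK3 level from which a JQ1 effect could be measured (log2 difference 0.35, adjusted p = 0.396; 0.05, adjusted p = 0.855, without the library that stood apart).

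**Figure D2:**
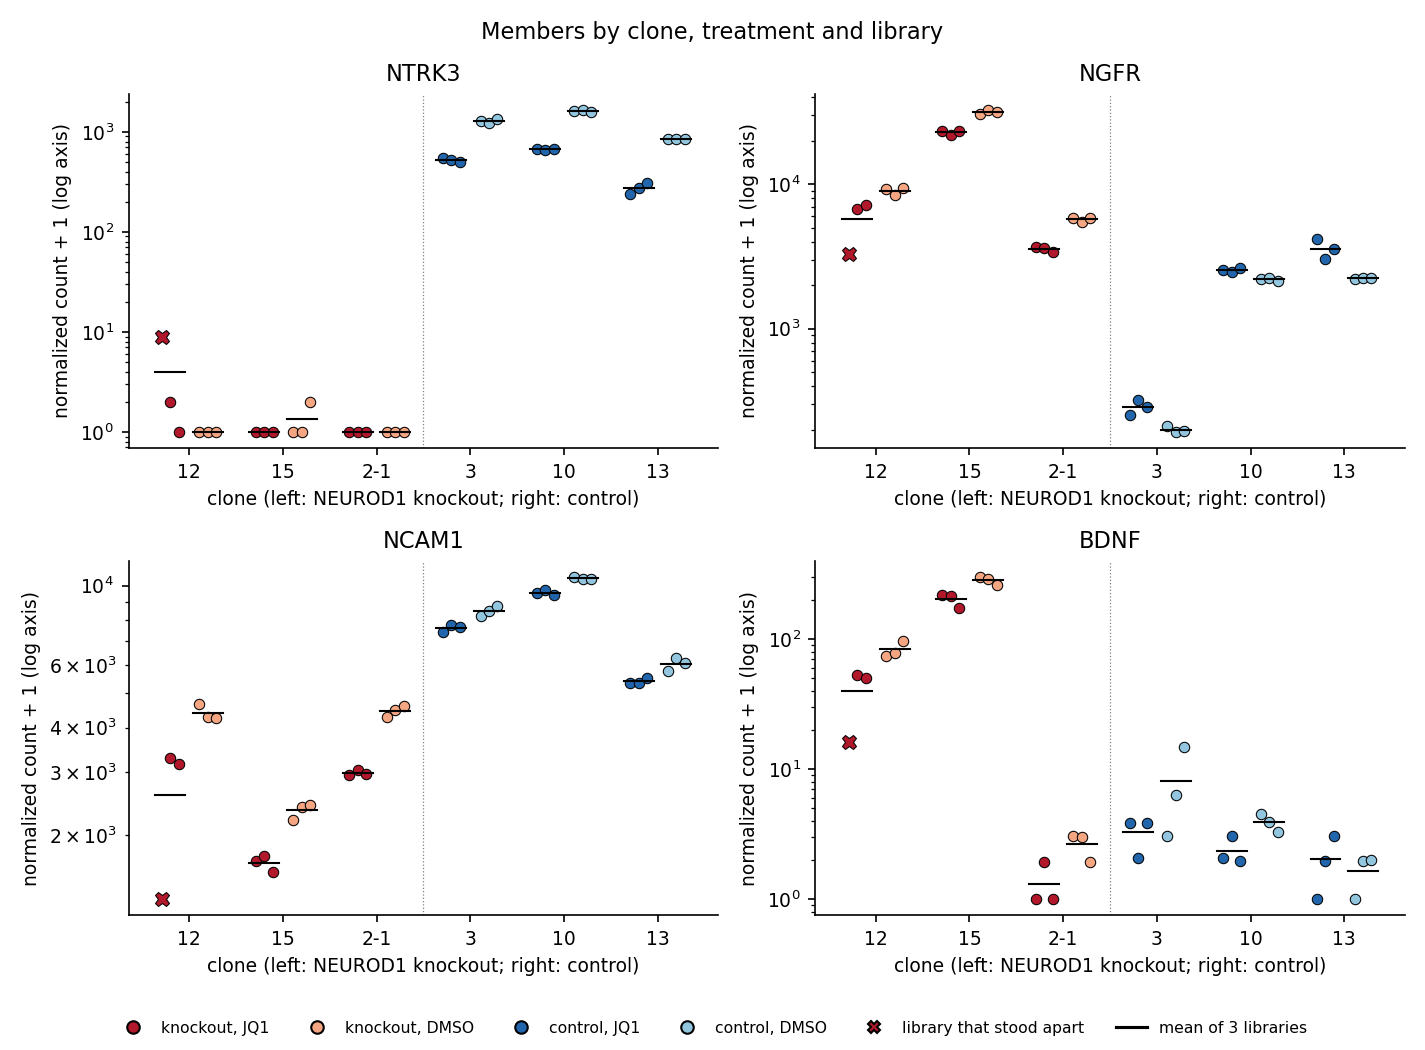
Normalized count + 1 (log axis) of NTRK3, NGFR, NCAM1 and BDNF in each of 36 libraries by clone; knockout clones lie left of the dotted line, JQ1 left of DMSO within a clone, bars are means of 3 libraries and the cross is the library that stood apart. NTRK3 separates the genotypes in every library, whereas BDNF of knockout clone 2-1 lies among the control clones.

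NTRK3 is transcribed into full-length receptors and forms that lack the kinase domain, and GENCODE 29 lists 14 coding transcripts of 257 to 19984 bases. Gene-level values do not separate them, but the ratio of normalized count to FPKM reflects the transcript length that the authors' estimate assigned. In control libraries with JQ1 this ratio ran from 21.7 to 46.8 counts per FPKM for NTRK3, and with DMSO from 19.3 to 44.6, a 2.31-fold range. For NGFR it ran from 49.6 to 51.0 and for NCAM1 from 53.6 to 57.9 in the same DMSO libraries. In clone 13 with DMSO the counts were alike (849.7, 852.8 and 839.4), while NTRK3 was listed at 20.3, 21.0 and 43.4 FPKM. In clone 3 with JQ1 it was listed at 13.1, 24.0 and 13.2 FPKM from counts of 541.3, 521.7 and 502.1. The FPKM of NTRK3 in a single library is therefore less steady than its count, and which transcript forms were present cannot be read from these values.

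**Figure D3:**
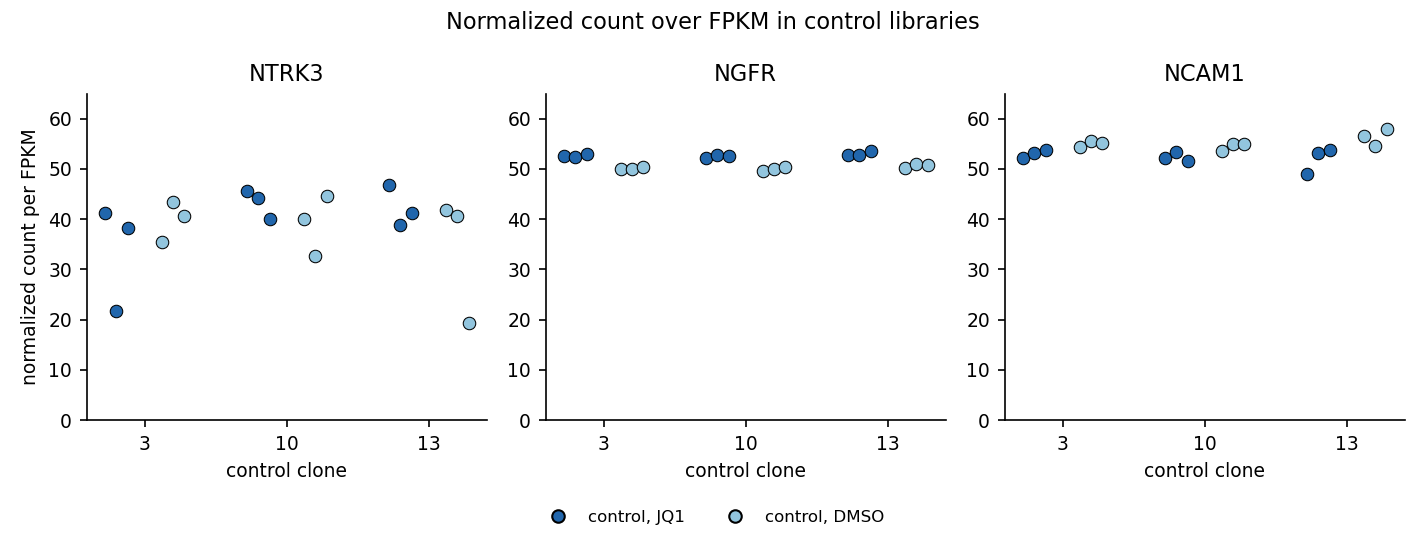
Normalized count divided by FPKM for NTRK3, NGFR and NCAM1 in the 18 control libraries, by clone and treatment, 1 point per library. NTRK3 spans 19.3 to 46.8, with 1 low library each in clone 3 with JQ1 and clone 13 with DMSO, whereas NGFR and NCAM1 stay between 49.0 and 57.9.

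NGFR (ENSG00000064300, GRCh38 17:49495293-49515017, plus strand), the p75 receptor, was higher in knockout libraries with DMSO but varied widely among clones. Knockout libraries held 9279, 8466 and 9359 normalized counts in clone 12, 30727, 32816 and 31349.7 in clone 15 and 5874, 5452 and 5854 in clone 2-1. Control libraries held 209.8, 191.4 and 194.1 in clone 3, 2194, 2243 and 2148 in clone 10 and 2195, 2228 and 2252 in clone 13. The lowest knockout library lay above the highest control library. Within a genotype, clone 15 stood above its fellow knockout clones and control clone 3 far below the other 2 control clones. The mean was 15464 ± 14098 in knockout and 1539 ± 1161 in control clones. The difference did not pass the test (log2 fold change 3.57, SE 1.06, adjusted p = 0.0769). It passed with DESeq2 on whole reads (adjusted p = 0.000549) and with single libraries taken as replicates. Over all settings the adjusted p ran from 0.000106 to 0.182.

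With JQ1 the genotypes overlapped for NGFR. Knockout libraries held 3261 (the library that stood apart), 6732 and 7176 in clone 12, 23229.6, 21991 and 23375 in clone 15 and 3660.1, 3639 and 3401 in clone 2-1. Control libraries held 249.3, 320.4 and 283.2 in clone 3, 2558, 2453 and 2634 in clone 10 and 4160.4, 3019 and 3572 in clone 13. Clone 2-1 of the knockouts and clone 13 of the controls lay in the same range. The log2 fold change was 2.47 (SE 1.05, adjusted p = 0.182; 2.59, adjusted p = 0.164, without the library that stood apart).

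The response of NGFR to JQ1 had opposite signs in the 2 genotypes. NGFR fell by 0.63 on the log2 scale in knockout clones (SE 0.09, adjusted p = 0.000893; 0.51, adjusted p = 0.00155, without the library that stood apart). It rose by 0.47 in control clones (SE 0.09, adjusted p = 0.00395). The log2 differences were -0.74, -0.47 and -0.68 in knockout clones 12, 15 and 2-1 (-0.38 in clone 12 without that library) and 0.51, 0.22 and 0.68 in control clones 3, 10 and 13. All 3 clones of each genotype moved the same way. The difference in response was -1.10 (SE 0.13, adjusted p = 0.0149; -0.98, adjusted p = 0.0102, without that library). The direction held in every setting, but the call did not hold without an expression trend in the prior (adjusted p = 0.0618), with edgeR on whole reads (0.0623) or without control clone 3, 10 or 13 (0.0808, 0.0736 and 0.0940); over all settings the adjusted p ran from 2.75e-08 to 0.0940.

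NCAM1 (ENSG00000149294, GRCh38 11:112961247-113278436, plus strand) was lower in knockout clones but far from absent. With DMSO, knockout libraries held 4659.6, 4274 and 4248 normalized counts in clone 12, 2201 to 2426 in clone 15 and 4286, 4470.2 and 4603 in clone 2-1. Control libraries held 8219.7, 8487 and 8793 in clone 3, 10588, 10439 and 10439.6 in clone 10 and 5759, 6261 and 6077 in clone 13. The genotypes did not overlap in any library, and clone 15 was the lowest knockout clone and clone 13 the lowest control clone. The mean was 3729 ± 1202 in knockout and 8340.2 ± 2233 in control clones. At a log2 fold change of -1.18 (a fold of 0.440, SE 0.31, adjusted p = 0.0550) the difference missed the threshold. It passed with equal library totals (adjusted p = 0.0425) and without replicate 1 (0.0462). It also passed with DESeq2 on whole reads (adjusted p = 0.00495) and with single libraries taken as replicates. Over all settings the adjusted p ran from 2.04e-05 to 0.176.

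With JQ1, NCAM1 was lower in knockout clones beyond the spread between clones. Knockout libraries held 1319 (the library that stood apart), 3294 and 3154 in clone 12, 1687, 1748 and 1575 in clone 15 and 2937, 3039.7 and 2954 in clone 2-1. Control libraries held 7432, 7767 and 7680.1 in clone 3, 9539.7, 9712 and 9418 in clone 10 and 5325, 5344 and 5508 in clone 13. Again no library of one genotype reached the other. The log2 fold change was -1.68 (SE 0.28, adjusted p = 0.0103), and -1.54 (adjusted p = 0.0213) without the library that stood apart.

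NCAM1 fell with JQ1 in knockout clones, by 0.65 on the log2 scale (SE 0.08, adjusted p = 0.000315; 0.50, adjusted p = 6.29e-05, without that library). In knockout clones 12, 15 and 2-1 the log2 differences were -0.88, -0.49 and -0.58 (-0.45 in clone 12 without it). In control clones 3, 10 and 13 they were -0.16, -0.13 and -0.16, so all 6 clones had less NCAM1 with JQ1. The control value of -0.15 (SE 0.08) had an adjusted p of 0.139, and of 0.0270 (SE 0.05) without that library. The difference in response of -0.50 (SE 0.11, adjusted p = 0.0509) lay at the threshold, and without that library it was -0.35 with an adjusted p of 0.0268. Over all settings its adjusted p ran from 0.00471 to 0.207, and 9 of 22 alternative settings passed.

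BDNF (ENSG00000176697, GRCh38 11:27654893-27722058, minus strand), the ligand of NTRK2 and NGFR, varied strongly among the knockout clones. With DMSO, knockout libraries held 72.8, 77.4 and 96.1 normalized counts in clone 12, 298.7, 287.1 and 257.9 in clone 15 and 2.05, 2.01 and 0.942 in clone 2-1. Control libraries held 2.04, 5.32 and 13.8 in clone 3, 3.55, 2.93 and 2.29 in clone 10 and 0, 0.967 and 0.999 in clone 13. Clones 12 and 15 lay above every control library, whereas clone 2-1 lay among them. In whole reads this was 1100 in knockout and 31 in control libraries. The log2 fold change was 3.52 (SE 1.65, adjusted p = 0.226), and 5.47 (adjusted p = 0.0123) without clone 2-1, within a range of adjusted p from 0.000763 to 0.457 over all settings.

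The pattern was the same with JQ1. Knockout libraries held 15.2 (the library that stood apart), 51.5 and 49.0 in clone 12, 218.3, 213.9 and 171.0 in clone 15 and 0, 0.941 and 0 in clone 2-1, and control libraries lay between 0 and 2.88. The log2 fold change between genotypes was 3.12 (SE 1.66, adjusted p = 0.275; 3.30, adjusted p = 0.265, without the library that stood apart), and 5.14 (adjusted p = 0.0148) without clone 2-1 (0.00163 to 0.570 over all settings). The JQ1 difference in knockout clones was -0.93 (SE 0.35, adjusted p = 0.0539; -0.75, adjusted p = 0.0755, without the library that stood apart). In control clones it was -0.53 (SE 0.35, adjusted p = 0.240) at a depth of 14 reads with JQ1 and 31 with DMSO over 9 libraries each, where a change was not detectable.

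**Figure D4:**
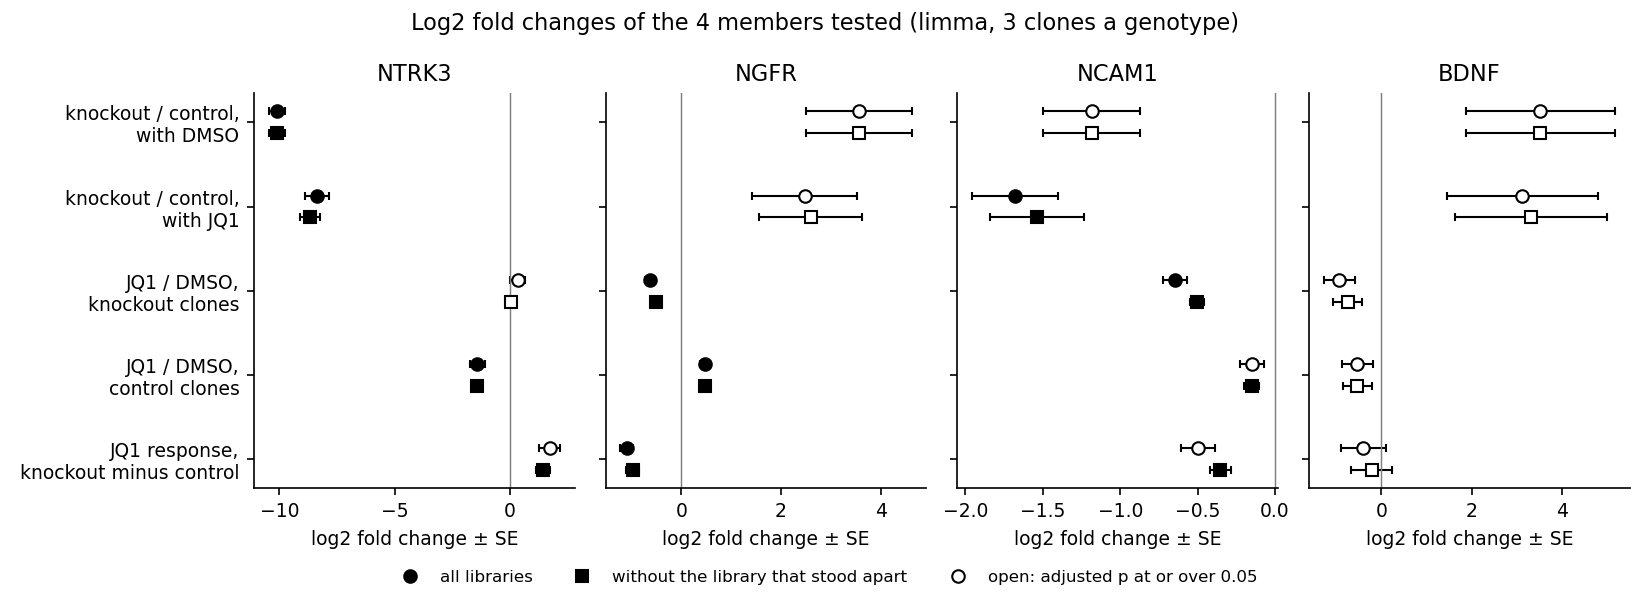
Log2 fold change ± SE of the 4 tested members in 5 comparisons (limma, 3 clones per genotype; each panel has its own x axis), with all libraries (circles) and without the library that stood apart (squares); filled symbols have an adjusted p under 0.05. NTRK3 is filled between genotypes with either treatment, NCAM1 is filled with JQ1 and open with DMSO, and NGFR has opposite filled values for JQ1 in knockout and in control clones.

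The calls among the members are given beside those among all genes. Between genotypes with DMSO 1 of the 4 tested members passed (NTRK3), where 12.5% of genes did (1985 of 15819). With JQ1 it was 2 of 4 (NTRK3 and NCAM1), against 12.0% of genes, or 11.2% without the library that stood apart. Clone means did not overlap between genotypes for 3 of 4 members with DMSO (34.4% of genes) and for 2 of 4 with JQ1 (34.1% of genes). JQ1 changed 2 of 4 in knockout clones (NGFR and NCAM1) and 2 of 4 in control clones (NTRK3 and NGFR), where it changed 49.6% and 47.9% of genes, so these shares were close to those of all genes. Without the library that stood apart it was 2 and 3 of 4, against 56.4% and 52.4% of genes. The response to JQ1 differed between genotypes for 1 of 4 (NGFR), against 3.10% of genes, and for 3 of 4 (NGFR, NCAM1 and NTRK3) against 7.36% without the library that stood apart. For NTRK3 the difference in response (log2 difference 1.45, adjusted p = 0.0301; 1.75, adjusted p = 0.0740, with all libraries) compares a fall in control clones with a transcript at 0 in knockout clones.

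**Figure D5:**
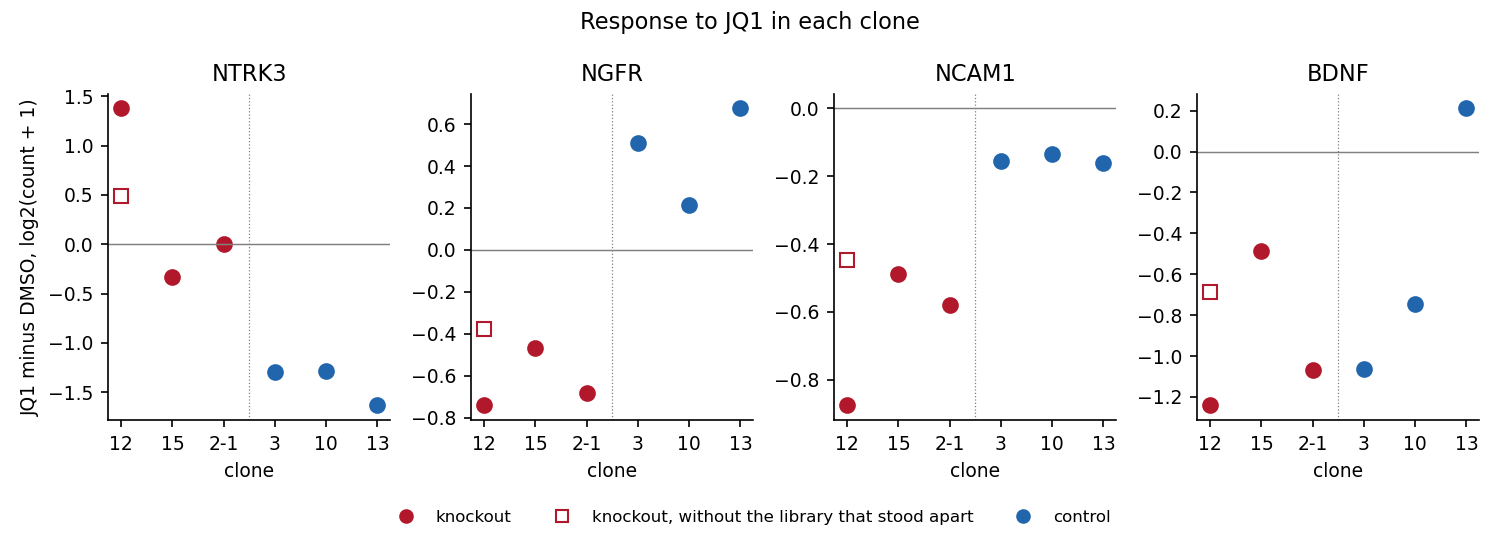
JQ1 minus DMSO difference in log2(normalized count + 1) in each clone for NTRK3, NGFR, NCAM1 and BDNF (1 point per clone, from means of 3 libraries per treatment; open squares leave out the library that stood apart). NGFR lies below 0 in 3 knockout clones and above 0 in 3 control clones, and NCAM1 lies below 0 in all 6.

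Antisense genes overlap 3 members, and the sources used here do not say whether the authors' counting used strand, so sense and antisense reads may be mixed. BDNF-AS averaged 27.4 ± 8.58 normalized counts with JQ1 and 25.5 ± 13.9 with DMSO in knockout clones, and 21.5 ± 6.84 with JQ1 and 6.22 ± 1.78 with DMSO in control clones. It rose with JQ1 in control clones by 1.66 on the log2 scale (SE 0.25, adjusted p = 0.00106), where BDNF itself did not pass. In knockout clones the value was 0.21 (adjusted p = 0.507), and the difference in response was -1.44 (adjusted p = 0.0660; 0.0406 without the library that stood apart). NCAM1-AS1 averaged at most 10.2 ± 4.88 normalized counts in any group, far below NCAM1. NTRK3-AS1 was listed at 0 FPKM in all 18 knockout libraries. In control clones it averaged 0.0589 ± 0.0455 FPKM with DMSO and 0.0189 ± 0.0171 FPKM with JQ1. It was at 0 in 2 and 6 of these libraries, so no difference between genotypes can be read at this level.

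Genes of the pathways around the members were followed by 8 lists, which give the counts that passed in each direction beside the median log2 fold change over each list's tested genes. That median over all 15819 genes was 0.01 between genotypes with either treatment, -0.03 for JQ1 in knockout clones and -0.01 for JQ1 in control clones. The counts of each list stand beside the shares of all genes that passed, 12.5% and 12.0% between genotypes with DMSO and with JQ1 and 49.6% and 47.9% for JQ1 in knockout and control clones. Of the genes that the naming rule took from the lists, 14 of 18 between genotypes with JQ1, 23 of 24 for JQ1 in knockout clones and 25 of 25 for JQ1 in control clones still passed without the library that stood apart. Among neurotrophins and their processing enzymes, 4 of 8 genes were tested, and between genotypes with DMSO 0 passed (median -0.07). With JQ1, PLAT, the tissue plasminogen activator that helps to mature BDNF, was higher in knockout clones (579.5 ± 506.1 against 14.0 ± 13.6, log2 fold change 5.28, adjusted p = 0.0104). NTF3, the ligand of NTRK3, was lower there (17.5 ± 11.2 against 80.5 ± 22.5, log2 fold change -2.34, adjusted p = 0.0326). With DMSO neither passed, but the means of both lay in the same directions. PLAT averaged 1104 ± 862.2 in knockout and 62.3 ± 59.3 in control clones with DMSO, and NTF3 50.7 ± 32.2 and 225.8 ± 87.2. Like its receptor, NTF3 fell with JQ1 in control clones (log2 fold change -1.46, adjusted p = 0.00126), and it also fell in knockout clones (-1.40, adjusted p = 0.00142). With JQ1, 1 of the 4 rose and 3 fell in each genotype. FURIN, a convertase of neurotrophin precursors, fell in knockout (-1.06, adjusted p = 0.00688; -1.46, adjusted p = 2.76e-05, without the library that stood apart) and control clones (-0.82, adjusted p = 0.0215). PCSK7, another convertase, was the 1 that rose (0.50, adjusted p = 0.00261, in knockout and 0.76, adjusted p = 0.000375, in control clones).

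Of 8 co-receptors and other receptors, 6 were tested, 1 higher and 1 lower in knockout clones with DMSO (median -1.25). SORT1, the co-receptor with NGFR for uncleaved neurotrophins, was lower (2896 ± 990.9 in knockout and 6326 ± 1410.5 in control clones, log2 fold change -1.15, adjusted p = 0.0400). SORL1, a sorting receptor of the same family, was higher (2922 ± 522.8 and 1584 ± 304.2, log2 fold change 0.88, adjusted p = 0.0320). With JQ1 SORL1 fell in knockout (-1.41, adjusted p = 4.85e-05) and in control clones (-0.81, adjusted p = 0.000384). Of 8 partners of NGFR signalling, BEX1, which in rodents binds its intracellular part, was lower in knockout clones with DMSO (81.1 ± 28.7 and 1634 ± 169.4, log2 fold change -4.38, adjusted p = 0.000214) and was the 1 that passed (list median -0.00046). BEX1 was also lower with JQ1 (-4.37, adjusted p = 0.000563).

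Of 10 GDNF family ligands and receptors, 4 were tested and 1 passed between genotypes with DMSO (median 0.29). It was GDF15, a distant family member that signals through GFRAL and RET, at 120.4 ± 103.7 in knockout and 3.73 ± 3.44 in control clones (log2 fold change 4.53, adjusted p = 0.0162). GDF15 fell with JQ1 in knockout clones (-2.98, adjusted p = 0.000523; -3.75, adjusted p = 0.000152, without the library that stood apart). Of 25 adaptors of Trk receptors and RET, 23 were tested, 1 higher and 2 lower in knockout clones with DMSO (median -0.33). The lower ones were SHC3, a neuronal adaptor of Trk receptors (3.19 ± 5.17 and 99.9 ± 15.3, log2 fold change -5.45, adjusted p = 0.00876), and PTPN11, the phosphatase SHP2 (-0.93, adjusted p = 0.0389). With JQ1, 4 rose and 1 fell in knockout clones (5 and 4 once the library that stood apart is dropped), and 3 rose and 9 fell in control clones (4 and 10). SHC1 fell in both (-0.80, adjusted p = 0.00148, and -0.60, adjusted p = 0.00626).

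Of 12 listed partners of NCAM1 and neural adhesion molecules, 11 were tested, 2 higher and 3 lower in knockout clones with DMSO (median -0.65). L1CAM, an adhesion molecule of axons, averaged 18.3 ± 24.4 in knockout and 1462 ± 1081 in control clones (log2 fold change -6.88, adjusted p = 0.00817). CNTN2, a contactin that binds it, averaged 2.10 ± 0.697 and 346.1 ± 358.9 (-6.41, adjusted p = 0.00632), and NRCAM averaged 149.8 ± 80.4 and 2428 ± 1096 (-4.07, adjusted p = 0.00322). PRNP, the prion protein and a binding partner of NCAM1, was higher (5893 ± 2900.5 and 601.4 ± 441.5, log2 fold change 3.38, adjusted p = 0.0153). With JQ1, NRCAM (-4.35, adjusted p = 0.0140) and L1CAM (-5.61, adjusted p = 0.00590) were again lower in knockout clones, and FGFR1, a receptor that NCAM1 can engage, was higher (1.43, adjusted p = 0.0384).

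Of 15 feedback and target genes of the ERK pathway, which Trk receptors and RET activate, 3 were higher and 1 lower in knockout clones with DMSO (median 0.63), where 12.5% of all genes passed. EGR1, an immediate early transcription factor, averaged 517.6 ± 204.7 in knockout and 39.3 ± 31.1 in control clones (log2 fold change 3.99, adjusted p = 0.0101). SPRED1, an inhibitor of the pathway, averaged 1489 ± 407.1 and 382.1 ± 24.8 (1.92, adjusted p = 0.00376). DUSP5, a phosphatase of ERK, was the 1 that was lower (80.9 ± 28.0 and 880.5 ± 567.1, -3.28, adjusted p = 0.00739). With JQ1, 2 rose and 6 fell in knockout clones, and 3 rose and 6 fell in control clones, near the 49.6% and 47.9% of all genes; ETV4 fell in both (-2.09, adjusted p = 0.000556, and -2.59, adjusted p = 0.000216). Of 12 transcription factors of sensory and autonomic neurons 4 were tested. POU4F1, a factor of sensory neurons, averaged 111.3 ± 14.0 in knockout and 3024 ± 808.9 in control clones with DMSO (-4.73, adjusted p = 0.000125) and was the 1 that passed (median -0.87). Markers of Schwann and glial cells, which also express NGFR, were at or near 0: 1 of 5 had a row among the normalized counts, at 18.6 in the library that stood apart and at most 10.6 elsewhere. In bulk RNA, fewer cells with a transcript and less of it per cell cannot be told apart.

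The genes most like each member over the 12 clone-by-treatment means were ranked by Pearson r among 12284 genes, as a description of means that share libraries and scaling. For NTRK3 they were ST18 (r = 0.997), KCNJ6 (0.996) and CA10 (0.995). CA10 averaged 0.356 with JQ1 and 0.664 with DMSO in knockout clones and 480.6 and 1068 in control clones. For NGFR they were ITGA2 (0.960), NELL2 (0.957) and MCOLN2 (0.951), and ITGA2, an integrin subunit, averaged 4120 in knockout and 336.6 in control clones with DMSO. For NCAM1 they were AC010091.1 (0.948), SLC29A2 (0.947) and TRAPPC3 (0.947). For BDNF they were EEF2K (0.966), TC2N (0.959) and IGFBP3 (0.953), at 0.895, 0.931 and 0.960 without the library that stood apart. A high r did not mean a change of like size. EEF2K averaged 1098 in knockout and 853.4 in control clones with DMSO, where BDNF averaged 121.7 and 3.54. TC2N averaged 233.3 with JQ1 and 35.0 with DMSO in knockout clones, where BDNF averaged 80.0 and 121.7. Both means with JQ1 include the library that stood apart, and its share in the TC2N value was not tested.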

How the data were processed

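Poly(A) RNA of 36 libraries was sequenced after a stranded TruSeq preparation, per the labels' protocols. cutadapt, STAR and RSEM on hg19 are named in the submitters' processing notes; the sources used here give neither versions nor the use of strand in counting. The authors deposited DESeq2-normalized counts per gene, a signal of counts divided by 1 size factor per library, and RSEM FPKM values. Whole reads were recovered from the deposited normalized counts (100% of values whole within 1e-05 in the lowest column). No hg19 coordinates were used; gene positions are those of GENCODE 29 on GRCh38. Pairing of gene identifiers with symbols came from the files.

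The members and lists were chosen with earlier results of these data known. Groups came from the labels, and nothing there says how far replicate libraries were independent, so libraries were averaged per clone on the log2 scale. limma 3.58.1 (R 4.3.3; prior variance with a trend on expression) was fitted to log2(normalized count + 1) over 15819 genes (at least 10 normalized counts in at least 9 libraries). Genotype was tested on 3 against 3 clone means; JQ1 was tested on per-clone differences with 1 spread over 6 clones. All p-values are two-sided, adjusted by Benjamini-Hochberg over all genes tested, with a threshold of 0.05, and come from limma unless another tool is named. The + 1 understates changes of low genes. The tests were tried on simulated data before use. Alternatives were pseudocounts, filters, scalings, FPKM (offset 0.1), no trend, single libraries, whole reads with edgeR 4.0.16 or DESeq2 1.42.0, and leaving out each clone and replicate number. After the data were seen, leaving out the library that stood apart and a spread from 1 genotype alone were added. Intervals cover counting error only. Listed genes are named by rule: up to 4 per list and comparison with the largest change among those called whose higher group averages at least 50, of which the text describes some; for likeness, the 3 genes of highest r with such a mean. All 6 members, their antisense genes, NEUROD1 and HEXIM1 are named whatever their values. Figures were drawn with matplotlib 3.10.9.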

Additional observations from a re-analysis of the deposited data

Results flagged for a closer look

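The response to JQ1 differed between genotypes, by a test of the difference itself, for NGFR, 4 pathway genes and CHGA (limma, knockout minus control clones). With all libraries, the pathway genes were 2 of 11 tested NCAM1 partners, 1 of 15 ERK pathway genes and 1 of 4 neuron factors, with none in the other lists. Without the library that stood apart, most of those other lists had calls too. The difference was positive for 4 and negative for 1 of 23 tested adaptors of Trk receptors and RET. Among 4 tested neurotrophin genes it was positive for 1 and negative for 1. It was negative for 1 of 6 tested co-receptors and other receptors and 1 of 8 NGFR partners. CHGA was 1 of 6 tested subtype markers. Among all 15819 genes the share was 3.10%, and 7.36% without the library that stood apart. NGFR differed by -1.10 (adjusted p = 0.0149), with a fall of all 3 knockout clones and a rise of all 3 control clones. PRNP differed by -1.37 (adjusted p = 0.0330; -1.32, adjusted p = 0.0276, without the library that stood apart), from -0.55 in knockout and 0.82 in control clones. FGFR1 differed by -0.81 (adjusted p = 0.0361; -0.70, adjusted p = 0.0129, without it), from -0.24 (adjusted p = 0.0868) in knockout and 0.57 in control clones. EGR1 differed by -1.11 (adjusted p = 0.0373; -1.17, adjusted p = 0.0258, without it), from 0.69 in knockout and 1.81 in control clones. POU4F1 differed by 0.83 (adjusted p = 0.0348; 0.96, adjusted p = 0.00780, without it), from 0.09 (adjusted p = 0.490) in knockout and -0.74 in control clones. CHGA differed by 1.01 (adjusted p = 0.0348; 1.11, adjusted p = 0.00915, without it), from 1.44 in knockout and 0.43 in control clones. This comparison called 490 genes, 12 with edgeR and 0 without any one of control clones 3, 10 and 13 (2502, 2385 and 2627 at an unadjusted p under 0.05), so these calls depend on having all 3 control clones.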

How the results depend on the processing

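Of 448 alternative values of the 4 tested members over 20 results, 395 kept their direction and their side of the threshold, 44 came to pass it, 7 no longer passed it and 2 changed sign. Both sign changes were for NTRK3 with JQ1 in knockout clones, at -0.17 without clone 12 and -0.01 without replicate 1, where nearly all reads were in 1 library; against 0.35 with all libraries it was 0.69 without clone 15, 3.00 with edgeR (adjusted p = 0.101) and 2.60 with DESeq2 (adjusted p = 0.0321). The number of members called for genotype with DMSO was 2 with equal library totals, 4 with DESeq2 and 1 to 2 when a clone or replicate number was left out (906 to 2033 genes, with 1216, 906 and 1119 without control clones 3, 10 and 13). For genotype with JQ1, leaving out gave 2 to 3 members and 760 to 1743 genes (1095, 760 and 1068 without those clones). For JQ1 in control clones it gave 1 to 3 members and 4945 to 8966 genes, with 4945 without clone 10. DESeq2 called 3327 and 3054 genes between genotypes with DMSO and JQ1. For the difference in response, the members called were 3 with a pseudocount of 5, 2 with a mean of at least 50, 2 with equal totals, 0 without the trend, 0 with edgeR, 3 with DESeq2, 0 to 3 when leaving out, and 3 when the library that stood apart is dropped. The genes called there were 98 with FPKM, 93 without the trend, 12 with edgeR (2822 at an unadjusted p under 0.05), 1046 with DESeq2, 0 to 1213 when leaving out (1213, 57 and 886 without knockout clones 12, 15 and 2-1, 129 and 70 without replicates 2 and 3) and 1164 when that library is dropped. Apart from what leaving out does to the number of clones, the cause was not tested. Between groups, libraries with the same replicate number had an r of deviations from -0.13 to 0.21 (median 0.01, 198 pairs, 10 of them over 0.1). Libraries with unlike numbers were not compared, so these values cannot decide whether the numbers pair libraries. Single libraries with a replicate block called 4, 4 and 3 members for genotype with DMSO, genotype with JQ1 and the difference (7465, 6503 and 4476 genes), and without the block 4, 4 and 3 (7856, 6803 and 4503 genes); these count libraries of a clone as independent. Depth limits BDNF in control clones and clone 2-1 (at most 13 reads in a library), and NTRK2 and RET, for which no counts were used.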
